A study of Homo sapiens with 8 samples.

Results

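The genes described here encode the nuclear subunits of the oxidative phosphorylation system. They were chosen by name: every probe set annotated to 1 gene symbol beginning with NDUFA, NDUFB, NDUFC, NDUFS, NDUFV, UQCR, COX4 to COX8 or ATP5, plus SDHA, SDHB, SDHC, SDHD and CYC1, leaving out assembly factors, pseudogenes and antisense genes. SDHB had no probe set annotated to it alone and is not among the members, so complex II is covered only in part. That gave 193 probe sets for 84 of the 18244 genes measured, and each gene was represented by its probe set with the highest mean. The 84 members comprise 36 genes of complex I, 3 of complex II, 9 of complex III, 17 of complex IV and 19 of complex V. COXFA4 and COXFA4L2 (older symbols NDUFA4 and NDUFA4L2) fell outside the naming rule.

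RNA came from 2 human lung adenocarcinoma lines, HCC827, which carries an activating EGFR mutation, and A549, which carries none. The 3D cultures began with 100000 cells on a collagen scaffold and ran for 14 days, the treated ones with 1 µM gefitinib, an EGFR kinase inhibitor, for the last 3. The 2D cultures began with 200000 cells in dishes of 21 cm2 and ran for 7 days, the treated ones again with 1 µM gefitinib, and controls received no inhibitor. The labels do not settle when gefitinib was added in 2D. Each of the 8 combinations had 1 array, so there was no replicate, and culture was confounded with culture time, seeding and RNA preparation (frozen scaffolds lysed with beads and a micro column kit in 3D, a mini column kit in 2D), which cannot be told apart from it.

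Complex I takes electrons from NADH and complex II takes them from succinate, both passing them to ubiquinone. Complex III hands them to cytochrome c and complex IV to oxygen, and complexes I, III and IV pump protons across the inner mitochondrial membrane. Complex V, the ATP synthase, lets the protons back through a rotating ring and makes ATP. A small part of the subunits is encoded by mitochondrial DNA and the rest, including all members here, by nuclear genes whose promoters are known for NRF1, ETS-family (GABPA), YY1 and SP1 sites.

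Values are log2 signals after robust multi-array averaging (RMA), so 1 unit is a doubling of signal, and levels of different probe sets are not compared. Array values are listed as HCC827 gefitinib, HCC827 control, A549 gefitinib and A549 control within a culture, and as 3D gefitinib, 3D control, 2D gefitinib and 2D control within a line. Of the 84 members, 78 passed the filter, which asked for values over the array median on 2 or more arrays, and entered a limma fit on all 11926 genes that passed, with Benjamini-Hochberg adjustment over those genes and a threshold of 0.05. The error (±) is the standard error of that fit, whose residual is the change of the gefitinib difference between cultures within a line and not replicate scatter. A lower signal can come from fewer cells that carry a transcript or from less of it per cell, which bulk RNA cannot tell apart.

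All 5 epithelial markers passed the filter (values from 7.72 to 14.54, summed level 60.36 to 65.64 in 3D and 61.48 to 66.51 in 2D). Of the fibroblast markers 2 of 6 passed the filter (summed level 38.85 to 41.05 in 3D, 39.76 to 43.03 in 2D), of the leukocyte markers 1 of 3 (19.63 to 21.29 in 3D, 19.35 to 21.26 in 2D) and of the endothelial markers 1 of 3 (21.03 to 21.69 in 3D, 20.75 to 21.10 in 2D). The sums hide single markers that differed between the cultures. EPCAM, an epithelial adhesion protein, was at 7.90 and 7.72 in A549 3D, against 9.77 and 9.74 in A549 2D (-1.95 ± 0.20 (adjusted p = 0.018)), where the medians of the 8 arrays were 7.27 to 7.34. LUM, a matrix protein of fibroblasts, was at 7.37, 6.28, 5.83 and 6.01 in 3D, against 8.47, 9.93, 6.90 and 7.66 in 2D, with overlap and a difference of -1.87 ± 0.45 (adjusted p = 0.03). The 3D minus 2D difference of COL1A1, a collagen of fibroblasts, was 0.33 ± 0.06 (adjusted p = 0.0176) and that of PECAM1, of endothelium, 0.37 ± 0.08 (adjusted p = 0.0233), with levels up to 7.54 and 7.63. The part of these markers in the culture results was not tested. The 3' minus 5' difference of the actin control probe sets, a sign of RNA shortening, averaged 2.10 ± 0.47 in 3D and -0.10 ± 0.04 in 2D (SD, n = 4 arrays each), a two-sided exact permutation p of 0.0286, the smallest that 70 splits allow. For GAPDH it was 0.91 ± 0.48 in 3D and -0.02 ± 0.02 in 2D. The part of this difference in the culture results below was not tested. DUSP6, a phosphatase induced by ERK signalling, was at 8.16 in HCC827 3D gefitinib against 11.48 in its control, but at 10.21 on the array labelled HCC827 2D gefitinib against 6.57 on the one labelled control. The HCC827 2D arrays are therefore named by their labels. Exchanging those labels would leave the fitted line and culture differences as they are by construction, but not their errors.

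Promoters of some of the members that carry the culture result are shown first, because their letters bear on whether members that moved alike share a motif. The SDHD, NDUFB4 and COX5A promoters belong to the largest called falls in 3D of complexes II, I and IV among genes with 1 listed start, and the ATP5ME promoter belongs to the only member called higher. Each runs from 250 bases before to 50 after the start of transcription, 5′ to 3′ on the gene's strand, from RefSeq (GRCh38.p14). Capitals mark matches, on either strand, to GCGCANGCG (NRF1), CCGGAAG (ETS), ATGGCGGC (YY1) and GGGCGG (SP1).
SDHD chr11:112086623-112086922 (+ strand): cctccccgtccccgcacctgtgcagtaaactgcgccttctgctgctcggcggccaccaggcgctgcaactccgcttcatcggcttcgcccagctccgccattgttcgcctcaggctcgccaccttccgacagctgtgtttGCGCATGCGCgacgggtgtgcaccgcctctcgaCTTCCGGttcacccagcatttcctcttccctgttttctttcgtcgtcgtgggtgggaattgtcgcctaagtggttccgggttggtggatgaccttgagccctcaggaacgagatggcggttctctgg
NDUFB4 chr3:120596086-120596385 (+ strand): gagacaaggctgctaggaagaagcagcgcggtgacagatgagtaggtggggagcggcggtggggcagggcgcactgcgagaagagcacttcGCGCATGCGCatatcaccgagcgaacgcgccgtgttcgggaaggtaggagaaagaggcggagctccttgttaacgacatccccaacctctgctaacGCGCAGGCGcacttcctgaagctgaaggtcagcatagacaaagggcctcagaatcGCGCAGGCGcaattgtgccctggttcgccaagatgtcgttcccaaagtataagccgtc
COX5A chr15:74938024-74938323 (- strand): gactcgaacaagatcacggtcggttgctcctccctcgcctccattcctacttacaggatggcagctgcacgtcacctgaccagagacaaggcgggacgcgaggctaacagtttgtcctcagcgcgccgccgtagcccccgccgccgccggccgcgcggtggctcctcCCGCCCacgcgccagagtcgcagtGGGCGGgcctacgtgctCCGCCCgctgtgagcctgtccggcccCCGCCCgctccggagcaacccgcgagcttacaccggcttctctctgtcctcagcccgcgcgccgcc
ATP5ME chr4:674227-674526 (- strand): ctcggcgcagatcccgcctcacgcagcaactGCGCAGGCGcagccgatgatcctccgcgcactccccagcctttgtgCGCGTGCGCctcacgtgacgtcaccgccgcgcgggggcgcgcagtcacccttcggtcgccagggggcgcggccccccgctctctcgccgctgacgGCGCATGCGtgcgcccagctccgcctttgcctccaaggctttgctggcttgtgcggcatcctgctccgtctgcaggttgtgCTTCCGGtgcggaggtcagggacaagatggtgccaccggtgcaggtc
The SDHD window held 1 ETS match and 2 NRF1 matches, which lie on opposite strands of the same letters and overlap. The NDUFB4 window held 4 NRF1 matches, of which 2 overlap in that way, and the COX5A window 4 SP1 matches and none of the other motifs. The ATP5ME window held 3 NRF1 matches and 1 ETS match, so NRF1 letters stood before genes that moved in opposite directions. The same choice in complexes III and V gave UQCRC2 and ATP5PD, whose promoters are not shown. The UQCRC2 window held 0 matches to any of the motifs, and the ATP5PD window 1 ETS and 1 SP1 match and 0 NRF1 matches.

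RefSeq listed 81 promoters for 68 of the members. The NRF1 letters were in 28.4% of them, against 7.52% of all 35116 promoters of that length. The ETS letters were in 25.9% against 10.3%, the YY1 letters in 14.8% against 3.00% and the SP1 letters in 60.5% against 45.0%. Within the members, NRF1 letters were in 26.8% of 41 promoters of members called lower in 3D and in 29.7% of 37 promoters of the other tested members. In the same order the shares were 26.8% and 27.0% for ETS, 12.2% (5 promoters) and 18.9% (7 promoters) for YY1 and 61.0% and 62.2% for SP1. The NRF1 letters were shortened by 1 base after the shares with the longer form had been seen, and the shorter form can only match more promoters. A match is a description of these letters and not of binding.

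The series compared growth on the scaffold with growth in dishes, and most of the subunit genes were lower in 3D. Averaged over both lines, 44 of the 78 tested members fell and 1 rose, while 17.1% of all genes tested fell and 30.4% rose. The median member difference, 3D minus 2D, was -0.50, against 0.12 over all genes tested. Every tested complex II gene fell (3 of 3, without SDHB), as did 6 of 9 genes of complex III, 18 of 36 of complex I, 6 of 12 of complex IV and 11 of 18 of complex V, which also held the rise. Without a fit, 26 of the 78 had all 4 3D arrays below all 4 2D arrays (10.1% of all genes tested), and 1 had them all above (19.1%).

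**Figure D1:**
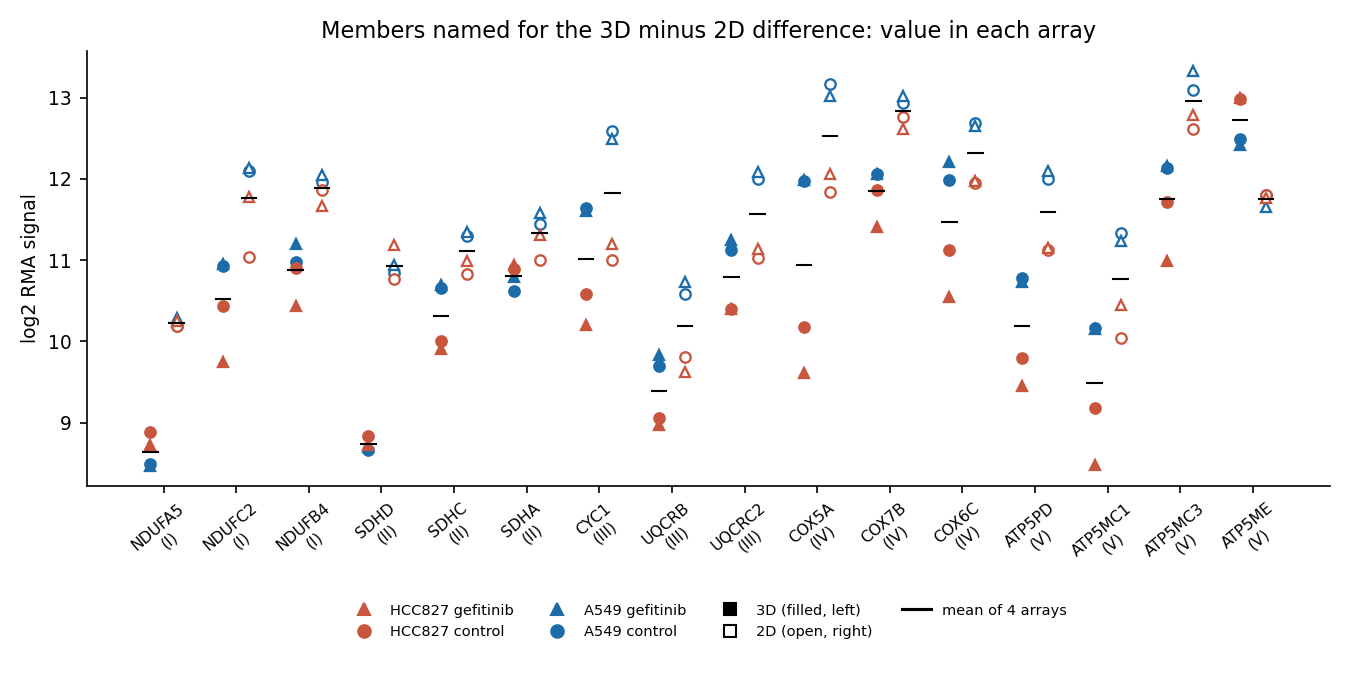
Log2 RMA signal (vertical axis) of the members with the largest called culture differences, by complex, with 1 point per array: filled 3D points at the left and open 2D points at the right of each gene, triangles for gefitinib, circles for control, red for HCC827 and blue for A549, and a bar at the mean of 4 arrays. The 3D points of SDHD lie between 8.66 and 8.84 and its 2D points between 10.77 and 11.18, whereas ATP5ME lies higher in 3D.

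Complex II gave the largest single difference. SDHD, a membrane anchor of succinate dehydrogenase at chr11:112086873-112095794 (GRCh38.p14), was at 8.73, 8.84, 8.71 and 8.66 in 3D, against 11.18, 10.77, 10.94 and 10.85 in 2D. The groups were far apart and each was narrow, the 3D signal being 21.8% of that in 2D, with a difference of -2.20 ± 0.12 (adjusted p = 0.00418). SDHC, the other anchor, was at 9.91, 10.00, 10.70 and 10.65 in 3D, against 11.00, 10.83, 11.34 and 11.30 in 2D. All 3D arrays were below all 2D arrays, by -0.80 ± 0.10 (adjusted p = 0.00652), and HCC827 was below A549 within each culture. SDHA, the flavoprotein that oxidises succinate, was at 10.94, 10.89, 10.80 and 10.62 in 3D, against 11.30, 11.00, 11.58 and 11.45 in 2D. Its groups did not overlap either, but the gap was narrow, at -0.52 ± 0.10 (adjusted p = 0.0154). TIMM8B, an import chaperone whose gene lies head to head with SDHD in RefSeq and which was singled out after its values were seen, was at 10.77, 10.75, 10.34 and 10.29 in 3D, against 10.61, 10.87, 10.51 and 10.55 in 2D. These values overlapped between cultures (difference -0.10 ± 0.10).

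In complex I the largest falls were in accessory subunits. NDUFA5, of the arm that reaches into the matrix, was at 8.73, 8.88, 8.46 and 8.49 in 3D, against 10.25, 10.19, 10.29 and 10.19 in 2D. The cultures did not overlap, the line made little difference, and the fitted difference was -1.59 ± 0.09 (adjusted p = 0.00418). NDUFC2, of the membrane arm, was at 9.75, 10.43, 10.96 and 10.93 in 3D, against 11.78, 11.04, 12.13 and 12.09 in 2D. The 3D arrays were all lower, by -1.24 ± 0.26 (adjusted p = 0.0205), with the HCC827 gefitinib array lowest. Its other 2 probe sets above the array median gave -0.20 and 0.093, so this fall rests on 1 probe set. NDUFB4, also of the membrane arm, was at 10.44, 10.90, 11.21 and 10.97 in 3D, against 11.67, 11.87, 12.05 and 11.97 in 2D. These groups again did not overlap (-1.01 ± 0.10 (adjusted p = 0.0051)). The 18 members of complex I that were not called included core subunits: NDUFS3 was at 0.04 ± 0.12, NDUFS8 at 0.01 ± 0.11 and NDUFV1, which binds NADH, at 0.23 ± 0.10, whereas the core subunits NDUFS1 (-0.81 ± 0.10), NDUFV2 (-0.90 ± 0.14) and NDUFS7 (-0.44 ± 0.13) fell. The highest value in complex I, NDUFS5 at 0.34 ± 0.11 (adjusted p = 0.0594), missed the threshold.

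In complex III all 9 members were below 0, with a median of -0.70 and a largest fall of -0.81. CYC1, cytochrome c1, was at 10.20, 10.58, 11.61 and 11.65 in 3D, against 11.21, 11.00, 12.50 and 12.59 in 2D. The A549 3D arrays were above the HCC827 2D arrays, so the groups overlapped over both lines, while within each line 3D was lower, by -0.81 ± 0.13 (adjusted p = 0.0116) on average. UQCRB, which binds ubiquinone, was at 8.97, 9.05, 9.83 and 9.69 in 3D, against 9.62, 9.81, 10.73 and 10.59 in 2D. It showed the same overlap between the lines and a difference of -0.80 ± 0.09 (adjusted p = 0.00554). UQCRC2, a core protein, was at 10.40, 10.40, 11.25 and 11.12 in 3D, against 11.14, 11.03, 12.09 and 12.00 in 2D. Its 3D arrays were lower within each line, by -0.77 ± 0.09 (adjusted p = 0.00603), and overlapped across the lines.

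In complex IV, COX5A, a structural subunit of cytochrome c oxidase, was at 9.61, 10.18, 11.98 and 11.98 in 3D, against 12.06, 11.84, 13.02 and 13.18 in 2D. The HCC827 3D arrays stood far below the rest, and the A549 3D arrays were at the level of HCC827 in 2D, giving -1.59 ± 0.16 (adjusted p = 0.00513). COX7B, a small subunit, was at 11.41, 11.87, 12.07 and 12.06 in 3D, against 12.62, 12.77, 13.03 and 12.94 in 2D. Here 3D and 2D did not overlap (-0.99 ± 0.10 (adjusted p = 0.00513)). COX6C, another small subunit, was at 10.55, 11.13, 12.21 and 11.98 in 3D, against 11.97, 11.95, 12.66 and 12.69 in 2D. Its groups overlapped over the lines, with a difference of -0.85 ± 0.14 (adjusted p = 0.0123). COX7C, at 0.24 ± 0.10 (adjusted p = 0.119), was the highest of complex IV and was not called. COXFA4, a further subunit of complex IV outside the naming rule, was at 11.32, 11.70, 12.16 and 12.12 in 3D, against 12.85, 12.57, 13.31 and 13.16 in 2D. It was lower on every 3D array, by -1.15 ± 0.14 (adjusted p = 0.0067).

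Complex IV also has tissue isoforms. The broadly expressed COX4I1 fell, by -0.40 ± 0.10, whereas its alternative COX4I2, known from lung, did not pass the filter (6.50 to 6.82 over the 8 arrays). COX6A1 (-0.02 ± 0.09), COX6B1 (-0.25 ± 0.09), COX7A2 (0.10 ± 0.10) and COX8A (-0.34 ± 0.20) were not called for culture. COX7A2L, a related gene and not a tissue isoform, fell by -0.70 ± 0.14. The other COX7A2 probe sets above the array median gave -0.25, -0.48 and -0.87, so its value depends on the probe set used. The muscle isoform COX6A2 passed the filter but stayed between 7.04 and 7.35, with a difference of 0.01 ± 0.08. COX7A1, COX6B2, COX7B2 and COX8C did not pass it, nor did COXFA4L2 and the complex V gene ATP5MGL.

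Complex V held falls of a similar size and the only rise. ATP5PD, subunit d of the peripheral stalk, was at 9.45, 9.79, 10.74 and 10.78 in 3D, against 11.16, 11.12, 12.09 and 12.00 in 2D. The cultures did not overlap (-1.40 ± 0.11 (adjusted p = 0.00437)). The c subunit that forms the proton-driven ring is encoded by ATP5MC1, ATP5MC2 and ATP5MC3, which yield the same mature protein. ATP5MC1 was at 8.48, 9.18, 10.15 and 10.16 in 3D, against 10.45, 10.04, 11.24 and 11.33 in 2D. It was lower in 3D within each line, by -1.27 ± 0.21 (adjusted p = 0.012), with overlap between A549 3D and HCC827 2D. ATP5MC3 was at 11.00, 11.72, 12.16 and 12.14 in 3D, against 12.79, 12.62, 13.34 and 13.09 in 2D. All its 3D arrays were lower, by -1.21 ± 0.18 (adjusted p = 0.00963). ATP5MC2 was at 11.35, 11.40, 12.59 and 12.38 in 3D, against 11.46, 11.64, 12.37 and 12.46 in 2D. These groups overlapped and differed by only -0.06 ± 0.10 (adjusted p = 0.668), so the genes of the c subunit were unequal on this array. ATP5ME, subunit e, which helps the synthase form dimers, was at 13.00, 12.99, 12.42 and 12.49 in 3D, against 11.77, 11.80, 11.66 and 11.80 in 2D. Every 3D array was above every 2D array, by 0.97 ± 0.08 (adjusted p = 0.00451), or 196% of the 2D signal.

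The calls rest on the fit's error, which comes from 4 pairs of arrays. Leaving out the A549 3D gefitinib, 3D control, 2D gefitinib or 2D control array gave 0 members lower and 0 higher in each case, and 0% of all genes tested. Leaving out an HCC827 array gave 50 lower and 6 higher (3D gefitinib), 60 and 3 (3D control), 50 and 6 (2D gefitinib) and 60 and 3 (2D control). In the same order, 26.4%, 31.3%, 25.2% and 30.3% of all genes tested were lower and 44.3%, 42.6%, 45.7% and 44.1% higher. The fit without an A549 array draws its residual from HCC827 alone, whose gefitinib pairs differ more. The SDHD difference itself stayed between -2.33 and -2.07 over these fits.

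**Figure D2:**
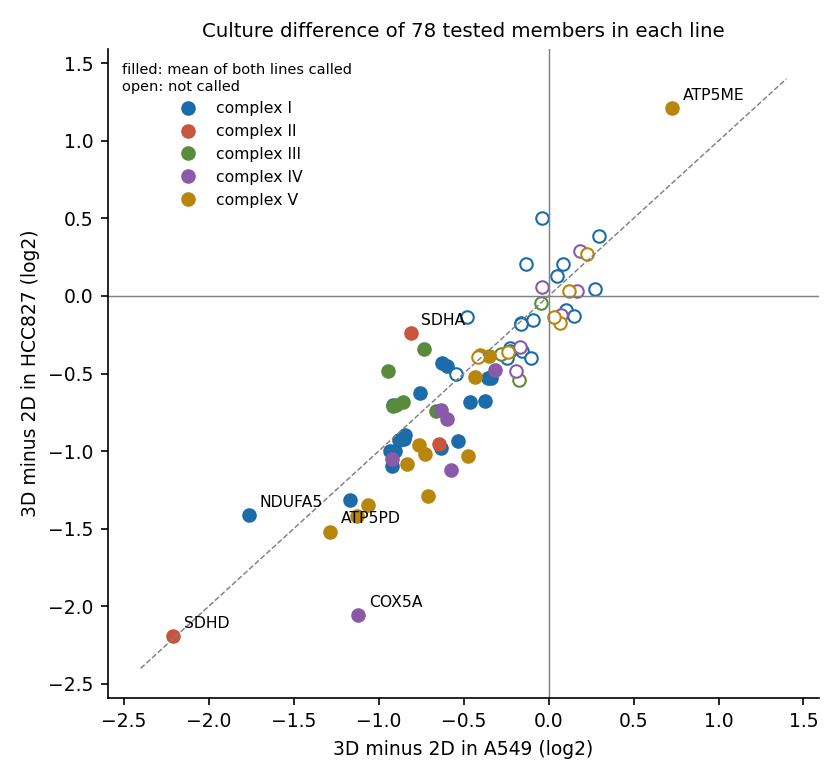
The 3D minus 2D difference in A549 (horizontal axis, log2) against that in HCC827 (vertical axis, log2) for the 78 tested members, coloured by complex, with filled points for members called in the mean of both lines and the dashed line marking equal differences. Of the points, 61 lie below 0 in both lines and 9 above 0 in both.

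Within HCC827, 32 members fell and 1 rose, while 13.7% of all genes tested fell and 19.7% rose. Within A549, 23 members fell and 1 rose, against 6.01% and 16.3% of all genes tested. The member, ATP5ME, rose in each line, by 1.21 ± 0.12 (adjusted p = 0.0109) in HCC827 and 0.73 ± 0.12 (adjusted p = 0.0256) in A549. Leaving out any 1 of the 4 A549 arrays (3D gefitinib, 3D control, 2D gefitinib, 2D control) gave 0 calls either way in each line, among members and among all genes tested. For HCC827 the counts were 39 lower and 7 higher without its 3D gefitinib array, 58 and 3 without 3D control, 38 and 7 without the array labelled 2D gefitinib and 59 and 3 without the one labelled 2D control, beside 23.2%, 31.5%, 22.3% and 30.5% of all genes tested lower and 34.4%, 32.8%, 35.8% and 34.2% higher. For A549 they were 51 and 4 without any 1 of those HCC827 arrays, beside 23%, 23%, 22.1% and 22.3% lower and 41.4%, 41.5%, 42.2% and 42.2% higher. Across the 78 members the differences of the lines had a Pearson correlation of 0.887 and a Spearman correlation of 0.881 (0.739 and 0.752 over all genes tested), as a description only, since genes share arrays and are not independent. The medians of single pairs, 3D minus 2D, were -0.70 for HCC827 gefitinib, -0.32 for HCC827 control, -0.42 for A549 gefitinib and -0.46 for A549 control, and over all genes tested 0.06, 0.13, 0.13 and 0.14.

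The test of the difference between the lines' culture differences called 0 members with limma, of 0% of all genes tested, and 3 of the 78 members had an unadjusted p under 0.05, against 1696 of all 11926 genes tested. The widest downward was COX5A, at -2.06 ± 0.23 in HCC827 and -1.12 ± 0.23 in A549 (interaction -0.94 ± 0.32 (adjusted p = 0.326)). The widest upward was SDHA, at -0.24 ± 0.14 in HCC827 and -0.81 ± 0.14 in A549 (interaction 0.57 ± 0.19 (adjusted p = 0.32)). The count depends on single arrays: without HCC827 3D gefitinib it was 11 higher and 1 lower, without HCC827 3D control 2 and 24, without the array labelled HCC827 2D gefitinib 13 and 1, and without the one labelled HCC827 2D control 2 and 24. In the same order 12.6%, 11.5%, 13.5% and 12.6% of all genes tested were higher and 16.8%, 25.7%, 16.9% and 25.4% lower. The smallest adjusted p of a member in the fit on 8 arrays was 0.320.

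Members with several probe sets allow a check within a gene. Of the 45 members with at least 2 probe sets above the array median, all probe sets were lower in 3D in 31, all higher in 4 and of both signs in 10, with no member having opposite differences that both passed 0.5. Their size varied: the range within a member had a median of 0.595 for culture and 0.152 for line, and the culture range was the wider one in 37 of the 45. In ATP5F1A, the alpha subunit of the catalytic head, the culture difference ran from -2.52 to -0.25, in UQCRC1, a core protein of complex III, from -2.27 to -0.70, and in SDHC from -1.82 to 0.09. SDHD was lower in all its probe sets, from -2.50 to -1.35, of which 2 hold identical values, and ATP5ME higher in both (0.97 and 0.61). Of 162 probe sets of members above the median, 134 were lower in 3D and 142 lower in HCC827. The position of a probe set along its transcript was not analysed here, so the part of RNA shortening in these ranges was not tested.

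**Figure D3:**
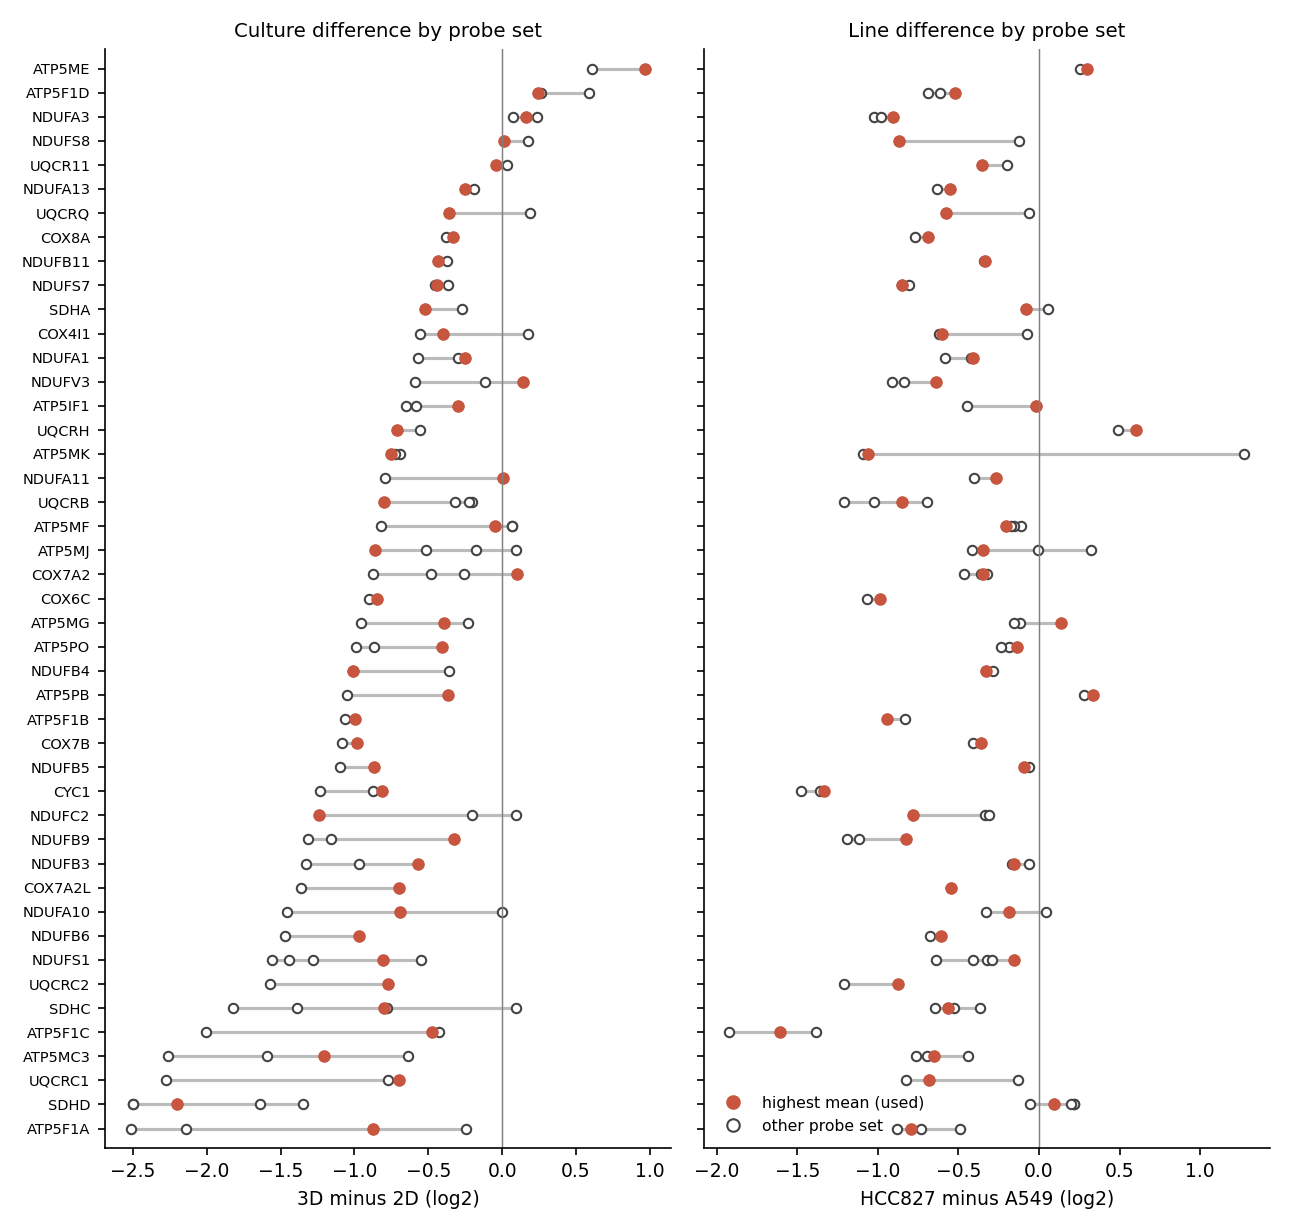
Culture difference (left panel, 3D minus 2D, log2) and line difference (right panel, HCC827 minus A549, log2) of each probe set above the median, for the 45 members with at least 2, the red point being the probe set used and the grey bar the range within a member. The bars are wider at the left (median range 0.595) than at the right (0.152), and the widest bar at the right is that of ATP5MK (2.36).

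The other comparison set HCC827 against A549, and again most members that differed were lower in the first. Of the 78 tested members 46 were lower and 4 higher in HCC827, with 26.1% of all genes tested lower and 22% higher. The median member difference, HCC827 minus A549, was -0.51, against -0.03 over all genes tested. By complex, 19 of 36 members of complex I, 1 of 3 of complex II, 6 of 9 of complex III, 10 of 12 of complex IV and 10 of 18 of complex V were lower. In 30 members all 4 HCC827 arrays were below all 4 A549 arrays (18.2% of all genes tested), and in 1 they were all above (14.4%). Scaling moved the line result. After cyclic loess 34 members were lower, with a median of -0.36, beside 2733 of all 11903 genes tested. After quantile normalization 34 were lower, with a median of -0.35, beside 2790 of 11927.

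COX5A had the largest difference, -1.62 ± 0.16 (adjusted p = 0.00278), from the array values given above, in which every HCC827 array was below its A549 partner. COX6B1, a subunit on the outer face of complex IV, was at 11.80, 12.09, 12.21 and 12.33 in HCC827, against 13.63, 13.61, 13.85 and 13.73 in A549. The lines were far apart, by -1.60 ± 0.09 (adjusted p = 0.000719), with no overlap, and its culture difference was not called. COX6C was lower by -0.99 ± 0.14 (adjusted p = 0.00678). In complex V, ATP5F1C, the gamma subunit of the rotating stalk, was at 9.16, 9.43, 9.87 and 9.77 in HCC827, against 10.89, 11.01, 11.34 and 11.43 in A549. All HCC827 arrays were lower, by -1.61 ± 0.11 (adjusted p = 0.0011). ATP5MC1 was lower by -1.19 ± 0.21 (adjusted p = 0.012), and ATP5MC2, which culture did not move, by -0.99 ± 0.10 (adjusted p = 0.0029) with no overlap between the lines.

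ATP5MK, a small membrane subunit of the synthase, was at 10.24, 10.86, 11.62 and 11.53 in HCC827, against 12.04, 11.74, 12.42 and 12.30 in A549. By this probe set the difference was -1.06 ± 0.15 (adjusted p = 0.00691), and another of its probe sets gave -1.09. The remaining one gave 1.27 in the opposite direction, so no direction is given for the gene. Its A549 values, 6.71 to 7.34, lay around or below the array medians. It was the only member whose line range over probe sets exceeded 1.

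In complex I, NDUFS4, needed for the stability of the NADH-oxidising end, was at 9.43, 9.44, 10.34 and 10.41 in HCC827, against 11.17, 11.13, 11.61 and 11.75 in A549. The lines did not overlap, and the difference was -1.51 ± 0.09 (adjusted p = 0.000903). NDUFV2, an iron-sulphur core subunit, was at 9.64, 10.13, 10.90 and 10.72 in HCC827, against 10.94, 10.98, 11.80 and 11.87 in A549. The HCC827 arrays were lower in both cultures (-1.05 ± 0.14 (adjusted p = 0.00603)). NDUFA3, an accessory subunit that culture did not move, was at 11.26, 11.40, 11.19 and 11.38 in HCC827, against 12.35, 12.36, 12.09 and 12.07 in A549. It also separated the lines fully, by -0.91 ± 0.08 (adjusted p = 0.00238).

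Complex III included both directions. CYC1 was lower in HCC827 by -1.34 ± 0.13 (adjusted p = 0.00264), UQCRC2 by -0.87 ± 0.09 (adjusted p = 0.00283) and UQCRB by -0.85 ± 0.09 (adjusted p = 0.00286). UQCRH, the hinge protein that helps cytochrome c bind, was at 12.07, 12.49, 12.77 and 12.77 in HCC827, against 11.56, 11.34, 12.42 and 12.37 in A549. It was higher in HCC827 within each culture, by 0.60 ± 0.11 (adjusted p = 0.0143), with overlap across cultures. UQCRHL, a near-identical copy, gave 0.60 ± 0.13 (adjusted p = 0.0198), and the array may not tell the copies apart. SDHC was the only complex II member to differ (-0.57 ± 0.10 (adjusted p = 0.0112)), with SDHD at 0.09 ± 0.12 (adjusted p = 0.583) and SDHA at -0.08 ± 0.10 (adjusted p = 0.528).

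The other 2 members higher in HCC827 were NDUFA9 and ATP5ME. NDUFA9, near the ubiquinone site of complex I, was at 10.59, 10.72, 10.67 and 10.95 in HCC827, against 10.33, 10.28, 10.42 and 10.38 in A549. It alone had every HCC827 array above every A549 array (0.38 ± 0.09 (adjusted p = 0.0275)). ATP5ME was higher by 0.30 ± 0.08 (adjusted p = 0.0433), while ATP5PB, subunit b of the peripheral stalk, missed the threshold at 0.33 ± 0.10 (adjusted p = 0.0506).

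**Figure D4:**
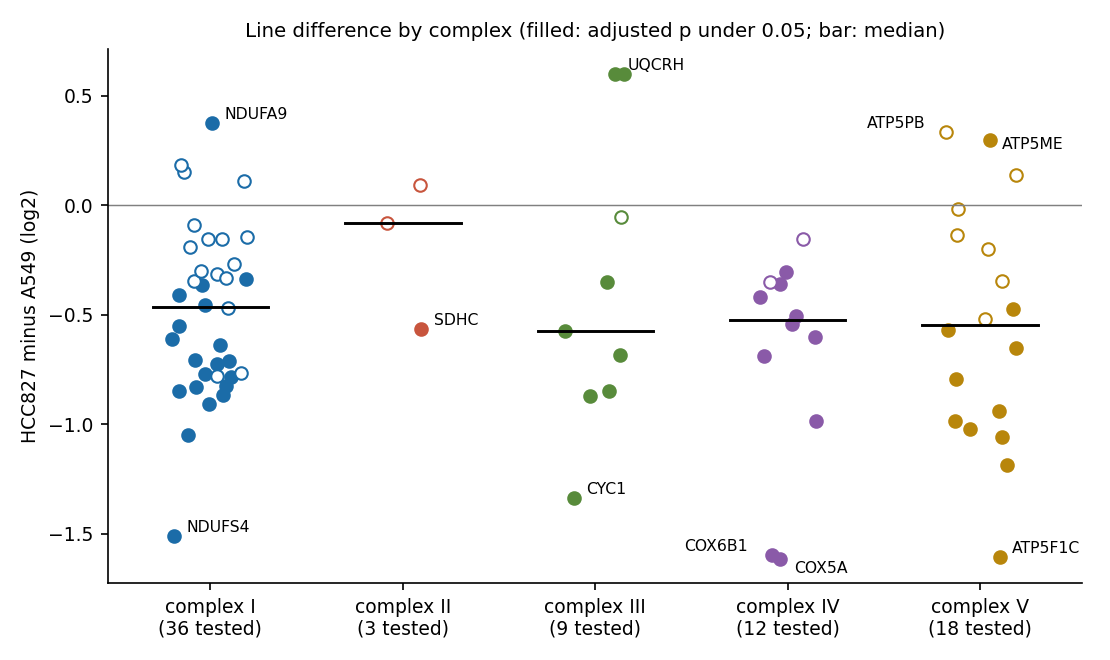
HCC827 minus A549 difference (vertical axis, log2) of the 78 tested members by complex, with filled points for members called, open points for members not called and a bar at the median of each complex. All 12 tested members of complex IV lie below 0, and the called points above 0 are NDUFA9, UQCRH, UQCRHL and ATP5ME.

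Single arrays mattered here too. Without the A549 3D gefitinib, 3D control, 2D gefitinib or 2D control array, 5, 6, 6 and 5 members were called lower and 0 higher, beside 8.37%, 8.56%, 8.7% and 8.81% of all genes tested lower and 6.3%, 6.47%, 6.47% and 6.62% higher. Without the HCC827 3D gefitinib or 3D control array, 56 and 63 were lower and 10 and 5 higher. Without the array labelled HCC827 2D gefitinib 63 were lower and 5 higher, and without the one labelled 2D control 56 and 10. Of all genes tested, in the order of those 4 HCC827 arrays, 35.5%, 40.4%, 39.8% and 35.2% were lower and 34.7%, 31.4%, 32.2% and 35.4% higher. With both HCC827 2D arrays left out, which makes this a difference within 3D, 59 were lower and 7 higher, beside 39.2% and 29.8% of all genes tested. The counts with A549 arrays removed are lower for the reason of the residual given for culture.

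Gefitinib was set against control in each line. With limma 0 members were called in HCC827 and 0 in A549, of 0% of all genes tested in each, and 2 members in HCC827 and 0 in A549 had an unadjusted p under 0.05. Of all 11926 genes tested, 487 in HCC827 and 86 in A549 had one. In the HCC827 fit the count moved with single arrays: 5 higher and 2 lower without 3D gefitinib, 5 and 2 without 3D control, 0 and 31 without the array labelled 2D gefitinib and 0 and 32 without the one labelled 2D control. In the same order 9.81%, 9.8%, 6.76% and 6.7% of all genes tested were higher and 12.1%, 12.4%, 20.3% and 20.4% lower. The pairs of that line ran apart, so the differences of 1 array minus 1 array follow, without a replicate error.

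In HCC827 3D, 73 of the 78 members were lower with gefitinib, against 7742 of all 11926 genes tested. The median was -0.34 over members and -0.11 over all genes tested. Of the members 19 were past -0.5 and 0 past 0.5, against 12.9% and 4.03% of all genes tested. ATP5IF1, an inhibitor of the synthase that acts when protons run backwards, was at 11.14 on the array labelled gefitinib, against 11.92 on the array labelled control. ATP5F1B, the catalytic beta subunit, was at 11.03 on the array labelled gefitinib, against 11.81 on the array labelled control. These were the widest falls of the pair, while COX6A2 (0.19) and SDHA (0.05) had the highest differences. The gefitinib array of this pair had the highest 3' minus 5' differences of all 8, at 2.64 for actin and 1.57 for GAPDH against 2.34 and 0.97 on its control array, and their part in the shift was not tested.

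In the pair labelled HCC827 2D the median member difference was 0.09, with 2 members past 0.5 and 0 past -0.5 (7.12% and 8.28% of all genes tested). NDUFC2 was at 11.78 on the array labelled gefitinib, against 11.04 on the array labelled control. NDUFC1, also of complex I, was at 11.39 on the array labelled gefitinib, against 10.72 on the array labelled control. Both thus ran opposite to HCC827 3D, where their differences were -0.68 and -0.68. UQCR11 (-0.48) and COX5B (-0.45) were lowest.

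The A549 pairs were close together. Member medians were 0.03 in 3D and 0.04 in 2D, as over all genes tested (0.03 and 0.04), and 0 members passed 0.5 either way in each (0.461% of all genes tested were past it upward and 0.26% downward in 3D, and 0.671% and 0.252% in 2D). The member differences ran from -0.19 (NDUFS1) to 0.30 (ATP5MK) in 3D and from -0.34 (NDUFAB1) to 0.29 (NDUFA10) in 2D.

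**Figure D5:**
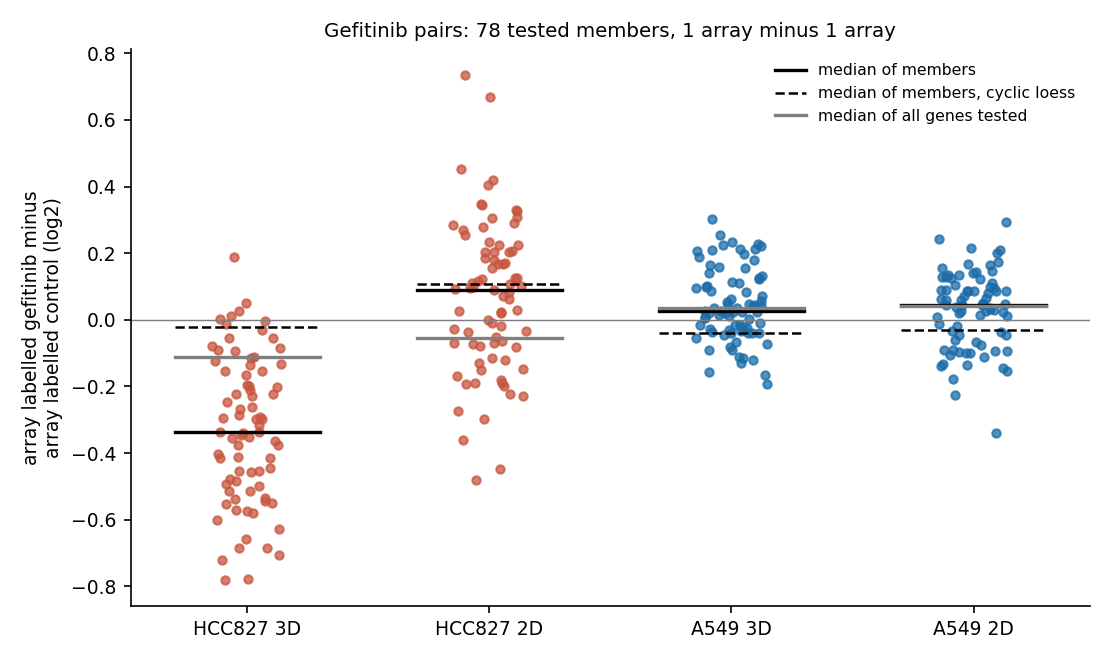
Difference of the array labelled gefitinib minus the array labelled control (vertical axis, log2) of the 78 tested members, 1 point each, in the 4 pairs, with black bars at the median of members, dashed bars at that median after cyclic loess and grey bars at the median of all genes tested. The HCC827 3D members lie mostly below 0 (median -0.34), but the dashed bar is at -0.02.

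The HCC827 3D shift depends on the scaling of the arrays. A fit without both HCC827 2D arrays, which takes its spread from A549, called 30 of the 78 members lower and 0 higher (19.8% and 6.55% of all genes tested), 11 of them in complex I, 0 in complex II, 5 in complex III, 5 in complex IV and 9 in complex V. ATP5IF1 was at -0.78 ± 0.13 (adjusted p = 0.00225) and ATP5F1B at -0.78 ± 0.13 (adjusted p = 0.00259). After cyclic loess the same fit called 5 of 77 members lower and 1 higher, beside 1098 and 1628 of all 11780 genes tested. The median pair difference of the members was then -0.02, and that of all genes tested was 0.05.

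Related gene lists, chosen with earlier results of these data known, show what else moved with culture, 3D minus 2D. Of all genes tested, 17.1% fell and 30.4% rose in this comparison, the shares to set beside each count. Enzymes of the TCA cycle, which feeds electrons to complexes I and II, fell in 7 and rose in 2 of 11 tested. SUCLA2, a subunit of succinyl-CoA synthetase, changed by -1.96 ± 0.13 (adjusted p = 0.00418) and IDH3A, of NAD-dependent isocitrate dehydrogenase, by -1.43 ± 0.13 (adjusted p = 0.00475), while OGDH, of the oxoglutarate dehydrogenase complex, rose by 0.62 ± 0.08 (adjusted p = 0.00832). Assembly factors of the complexes fell in 18 and rose in 3 of 49, led by TMEM70, which serves complex V (-1.75 ± 0.21 (adjusted p = 0.00647)), and NDUFAF4, which serves complex I (-1.23 ± 0.09 (adjusted p = 0.00434)). Coenzyme Q synthesis and cytochrome c genes fell in 8 and rose in 3 of 15: CYCS, cytochrome c, was at 11.06, 11.10, 11.65 and 11.50 in 3D, against 12.51, 12.40, 12.65 and 12.74 in 2D. Every 3D array of CYCS was lower (-1.25 ± 0.10 (adjusted p = 0.00434)), and COQ8B, a kinase-like protein of coenzyme Q synthesis, was higher (0.91 ± 0.13 (adjusted p = 0.00889)).

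Import genes fell in 8 and rose in 0 of 23, beside 17.1% and 30.4% of all genes tested, with TIMM17A, of the inner membrane translocase, at -1.44 ± 0.10 (adjusted p = 0.00418). Regulators of mitochondrial biogenesis were split, with 6 lower and 3 higher of 13. NRF1 rose by 0.63 ± 0.08 (adjusted p = 0.00724) and the mitochondrial RNA polymerase POLRMT by 0.99 ± 0.10 (adjusted p = 0.00513), whereas the ETS factor GABPA changed by -0.56 ± 0.09 (adjusted p = 0.0114) and the mitochondrial transcription factor TFB2M by -0.97 ± 0.15 (adjusted p = 0.0103). The coactivator PPARGC1A, which the count holds among the lower genes, fell in A549 by -1.41 ± 0.09 (adjusted p = 0.0177), while its HCC827 values lay below every array median. NRF1 and GABPA were added to the 2 largest of the list after their values were seen, as the factors of the motifs above.

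Of the 13 subunits encoded by mitochondrial DNA, 1 had a probe set used here. COX3, a core subunit of complex IV, was at 14.79, 14.54, 14.33 and 14.58 in 3D, against 13.54, 13.91, 13.80 and 13.59 in 2D. Every 3D array was higher, by 0.85 ± 0.15 (adjusted p = 0.014), opposite in sign to most nuclear subunits.

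Of 18 glycolytic genes 2 rose and 0 fell, among them ALDOC, an aldolase, at 2.06 ± 0.35 (adjusted p = 0.0129), a smaller share than the 30.4% of all genes tested that rose. In the list of hypoxia-driven genes 5 rose and 2 fell of 12, beside 30.4% and 17.1% of all genes tested, led by NDRG1 (2.59 ± 0.70 (adjusted p = 0.0403)) and VEGFA (2.29 ± 0.40 (adjusted p = 0.0137)). These are means of both lines. The list median was 1.39 in A549, with 3 of 12 genes below 0, and -0.21 in HCC827, with 7 of 12 below 0. The glycolytic median was 0.76 in A549 and 0.09 in HCC827. The test of the difference between the lines' culture differences called 0 genes of either list. It called 0 of all 11926 genes tested, so this count does not show whether the lines differ in these lists. Between the lines, HCC827 minus A549, where 26.1% of all genes tested were lower and 22% higher, the TCA list had 6 lower and 1 higher of 11, assembly factors 16 and 7 of 49, coenzyme Q and cytochrome c genes 6 and 0 of 15, import genes 7 and 2 of 23, biogenesis regulators 2 and 3 of 13, glycolytic genes 3 and 0 of 18 and hypoxia-driven genes 1 and 1 of 12. COX3 was at 0.12 ± 0.15 (adjusted p = 0.555). PPARGC1A, a coactivator of mitochondrial biogenesis, was at 6.48, 6.57, 6.41 and 6.47 in HCC827, against 7.95, 7.70, 9.40 and 9.07 in A549. Its HCC827 values lie below the array medians, so no size is given for the difference.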

How the data were processed

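Expression was measured on 8 arrays of 2 cell lines, 1 for each line, culture and treatment. The authors deposited log2 signals of 49495 probe sets, which the submitters' processing notes describe as RMA output from R 3.2.1, and the values were used without further normalization. No genome build is named in the labels or file headers. In the array annotation 45278 carried 1 gene symbol, and 6 that name a member together with another gene were left out. Each gene was represented by its probe set with the highest mean. Promoters and gene positions are from RefSeq (GRCh38.p14).

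The fit (limma 3.58.1, R 4.3.3) had 6 coefficients: a mean, line, culture, treatment, line by culture and line by treatment, moderated by eBayes with a trend, 2 residual degrees of freedom and 2.36 from the prior. Tests were two-sided. Differences between gefitinib and control within a line and culture are 1 array minus 1 array. Without replicates the p-values do not measure biological scatter, and the number of arrays limits the precision. Array text was handled in Python 3.11.15 with pandas 2.3.3 and scipy 1.17.1.

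Members and lists were chosen with earlier results of these data known. Named members are the complex II genes, the tissue isoforms, COX7A2L and ATP5IF1. For line and culture they are up to 3 largest called rises and 3 largest called falls per complex with the same sign in every pair (1 each way where none was called). For the interaction they are the widest each way and for gefitinib the 2 widest pair differences each way. Up to 2 genes are named per related list. Further genes were named after their values were seen (NDUFS1, NDUFS3, NDUFS7, NDUFS8, NDUFV1, ATP5F1A and UQCRC1). Alternatives changed the probe set choice, filter, normalization, model terms, variance prior, threshold and arrays used. Simulated data with known changes were used to test the fit.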

Additional observations from a re-analysis of the deposited data

Results flagged for a closer look

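The gefitinib difference of the members ran one way in one HCC827 pair and the other way in the second. Their median, gefitinib minus control, was -0.34 in HCC827 3D, where 73 of 78 members were below 0, and 0.091 in the pair labelled HCC827 2D, where 31 were. Of all 11926 genes tested, 7742 and 6937 were below 0 in these pairs. The difference between the cultures was not tested, because each value is 1 array minus 1 array. DUSP6 also ran opposite ways in these pairs (-3.32 in 3D and 3.64 in 2D), and after cyclic loess the member medians were -0.020 and 0.11, with 42 and 26 members below 0.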

How the results depend on the processing

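No paired analysis was possible because each condition has 1 array and the labels give no replicate numbers that pair arrays. Limits are the 8 arrays without replicates, the larger 3' minus 5' difference of the 3D arrays, the HCC827 2D arrays that go against their labels and scaling, since cyclic loess moved the median of all genes in the HCC827 3D gefitinib pair from -0.11 to 0.05. Members lower and higher that moved by over 1.5 times are given here, and the cause was not tested unless a smaller set of genes shows it. With only plain _at probe sets, which leave 16 members, the counts lower were 6 for line, 11 for culture, 6 for culture in A549 and 7 in HCC827, and the counts higher 0 for each culture result. Asking also for log2 1 left 9 lower and 0 higher for line, 8 and 0 for culture, 5 and 0 in A549 and 14 and 1 in HCC827. Over all 11926 genes tested it left 1009 and 880 for line, 348 and 701 for culture, 192 and 717 in A549 and 635 and 827 in HCC827. The largest-variance probe set gave 39 lower in A549 and 2 higher for culture, and the mean of a gene's probe sets also 2 higher. With the largest-variance probe set 2179 of all 11465 genes tested were lower in A549, against 717 of 11926 in the fit used above. For culture 3827 of those 11465 genes were higher, and with the mean of probe sets 2787 of 10636. Quantile normalization and cyclic loess each gave 3 higher for culture and 3 higher in HCC827, and a fit with no treatment terms gave 2 higher in HCC827. Of all genes tested, 4010 and 2921 of 11927 were higher after quantile normalization and 3932 and 2770 of 11903 after cyclic loess. With no treatment terms 3077 of 11926 were higher in HCC827. Without both HCC827 2D arrays the counts were 7 higher for line, beside 3515 of all 11806 genes tested. For culture in A549 they were 51 lower and 4 higher, beside 2583 and 5035. For gefitinib in HCC827 30 were lower, beside 2343. With cyclic loess added the counts were 11 higher for line, beside 4360 of all 11780 genes tested. For culture in A549 they were 53 lower and 4 higher, beside 2563 and 5032. For gefitinib in HCC827 they were 5 lower and 1 higher, beside 1098 and 1628. The settings chosen after seeing the data are the last of these, the same for line, and the listing of every probe set. Leaving out 1 array at a time, line gave 5 to 63 lower and 0 to 10 higher, culture 0 to 60 and 0 to 6, culture in A549 0 to 51 and 0 to 4, culture in HCC827 0 to 59 and 0 to 7, the interaction 0 to 24 and 0 to 13, and gefitinib in HCC827 0 to 32 and 0 to 5. ATP5MK reversed between the lines, at 1.27 with the largest-variance or the plain _at probe set. The A549 gefitinib medians reversed after cyclic loess, to -0.041 in 3D and -0.030 in 2D, and that of HCC827 3D moved to -0.020, or to -0.23 with the mean of probe sets. Of 648 values of single named members under an alternative, 519 kept their direction and side of the threshold, 127 kept their direction and missed the threshold, and 2 reversed. Leaving out any 1 of the 4 A549 arrays accounted for 27 of the 127 each.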
